A study of Mus musculus with 12 samples.

Results

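The genes described here are 10 markers that are used to recognise stem or progenitor cells in epithelia: Cd44, Prom1, Aldh1a1, Sox9, Ly6a, Itga6, Cd24a, Bmi1, Tnfrsf19 and Klf4. They were taken by symbol from a table of 35509 genes, and all 10 were found in it. RNA was measured in 12 libraries of cells cut by laser microdissection from the distal end of the Fallopian tube, or oviduct, of 6 wild-type mice, aged 4 weeks and untreated, that carried the MADM RG;GR alleles on a mixed background. MADM (mosaic analysis with double markers) labels a dividing cell's lineages by recombination between homologous chromosomes, so that a clone can be seen in the tissue and its size judged. Each mouse gave 1 pool of 200 cells from large clones and 1 pool of 200 cells from small clones, and the comparison asks how the RNA of a clone relates to its size. The driver of recombination and the sizes that separate large from small clones are not given in the sources used here. A pool of cells gives a summed signal, in which fewer cells of a type and less RNA per cell cannot be told apart.

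These genes mark different things in a cell. CD44 is a surface receptor for hyaluronan, integrin alpha 6 binds laminin in the basement membrane, and TNFRSF19 (TROY) is a receptor of the tumour necrosis factor family known as a Wnt target in intestinal stem cells. Prominin-1 (CD133), LY6A (SCA-1) and CD24 are surface proteins used to sort progenitor cells, although CD24 is also widely present on differentiated epithelium and LY6A on blood, endothelial and stromal cells. ALDH1A1 makes retinoic acid from retinal, SOX9 and KLF4 are transcription factors of epithelial development and differentiation, and BMI1 is a subunit of Polycomb repressive complex 1, which silences genes through chromatin. In the oviduct, secretory cells are regarded as a source of ciliated cells, and progenitor activity has been placed mainly at the distal end.

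The sequences of 2 members bear on how their counts can be read, because reads from near copies may be shared among genes. The first 90 coding bases of Aldh1a1 and of its neighbour Aldh1a7 are shown with the bases that differ in capitals (5′ to 3′, from the GENCODE M21 transcripts of GRCm38). The same is shown for Ly6a and Ly6c1, another gene of the Ly6 cluster.
Aldh1a1: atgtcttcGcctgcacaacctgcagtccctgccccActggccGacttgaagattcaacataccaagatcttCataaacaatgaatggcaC
Aldh1a7: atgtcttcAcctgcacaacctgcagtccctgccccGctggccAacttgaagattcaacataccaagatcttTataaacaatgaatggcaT
Ly6a: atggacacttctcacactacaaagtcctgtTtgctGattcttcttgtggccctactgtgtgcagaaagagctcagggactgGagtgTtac
Ly6c1: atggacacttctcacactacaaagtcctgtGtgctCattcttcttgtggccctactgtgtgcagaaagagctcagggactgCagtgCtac
Aldh1a1 and Aldh1a7 differed at 5 of these 90 bases, and over 1506 aligned coding bases they were 91.6% identical. Ly6a and Ly6c1 differed at 4 of the 90 and were 76.5% identical over 396 aligned bases. Stretches of 50 bases that also occur in a transcript of another gene, on either strand, made up 3.06% of all such stretches in Aldh1a1 (all of them shared with Aldh1a7) and 19% in Ly6a, the highest share among the members. The share was 16.7% for Bmi1, nearly all of it with the gene Gm5946. It was 5.31% for Itga6, 5.1% for Prom1, 2.75% for Cd24a and 0.263% for Klf4, and 0 for Cd44, Sox9 and Tnfrsf19. The genes sharing most with Aldh1a1, Ly6a and Bmi1 were low in these libraries: Aldh1a7 reached at most 22 counts in a library, Ly6c1 at most 31 and Gm5946 at most 1. Stretches were shared with 102 other genes for Prom1, 9 for Itga6 and 4 for Ly6a, and the levels of most of these are not given. The counts of relatives come from the same division of reads among genes, so they do not bound the uncertainty, which was not measured. It concerns the 7 members that share such stretches, with the highest shares for Ly6a and Bmi1.

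Each library held between 3057979 and 4227129 expected counts. Levels are given as CPM, the usual per-library scaling of counts, here on library sizes adjusted by TMM, on which the 3 counts that a count of 0 allows come to 0.585 to 1.33 CPM, for counting error only. Chemoreceptor genes (for olfactory, vomeronasal, trace-amine and taste receptors) took 7.86% to 11.02% of the counts of 5 libraries, those of the large clones from mice 1, 2 and 6 and of the small clones from mice 3 and 6. In the 7 remaining libraries they took 0.841% to 4.17%. The summed level of 9 epithelial genes (Epcam, Cdh1, keratins and claudins) was 272 to 1338 CPM in those 5 libraries and 4318 to 8849 CPM in the 7. Results are therefore also given within each of these sets, which the files define and the study does not. In mice 1, 2 and 3 the 2 libraries fell in different sets, so within these mice clone size and set cannot be told apart.

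No member passed the test between large and small clones. In edgeR's quasi-likelihood test over 10848 genes, 0 of the 8 members that could be tested had an adjusted p under 0.05, where the same was true of 0% of all genes tested, and each member had an adjusted p of 0.9998. Sox9 was the 1 member of the 8 with an unadjusted p under 0.05, against 2.54% of all genes (275), or 1.44% when only those higher in large clones are counted. No member was lower at that p, against 1.1% of all genes. No member had all 6 large-clone libraries above or all 6 below the small-clone libraries, which 0.0277% and 0.0369% of all genes did. DESeq2, run as an alternative, called 5 of the 10848 genes, and 42 with a term for mouse. It called 0 of the 8 members in either fit. Ly6a and Bmi1 were not tested, because too few libraries held enough of their counts for the filter. Of the 8 members tested, 4 had a log2 fold change above 0 (higher in large clones), as had 53.2% of all genes. The median log2 fold change was 0.09 over the 8 members and 0.06 over all genes tested. An absolute log2 fold change above 1 was seen in 3 of the 8, Aldh1a1, Sox9 and Cd44, and in 25.7% of all genes.

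**Figure D1:**
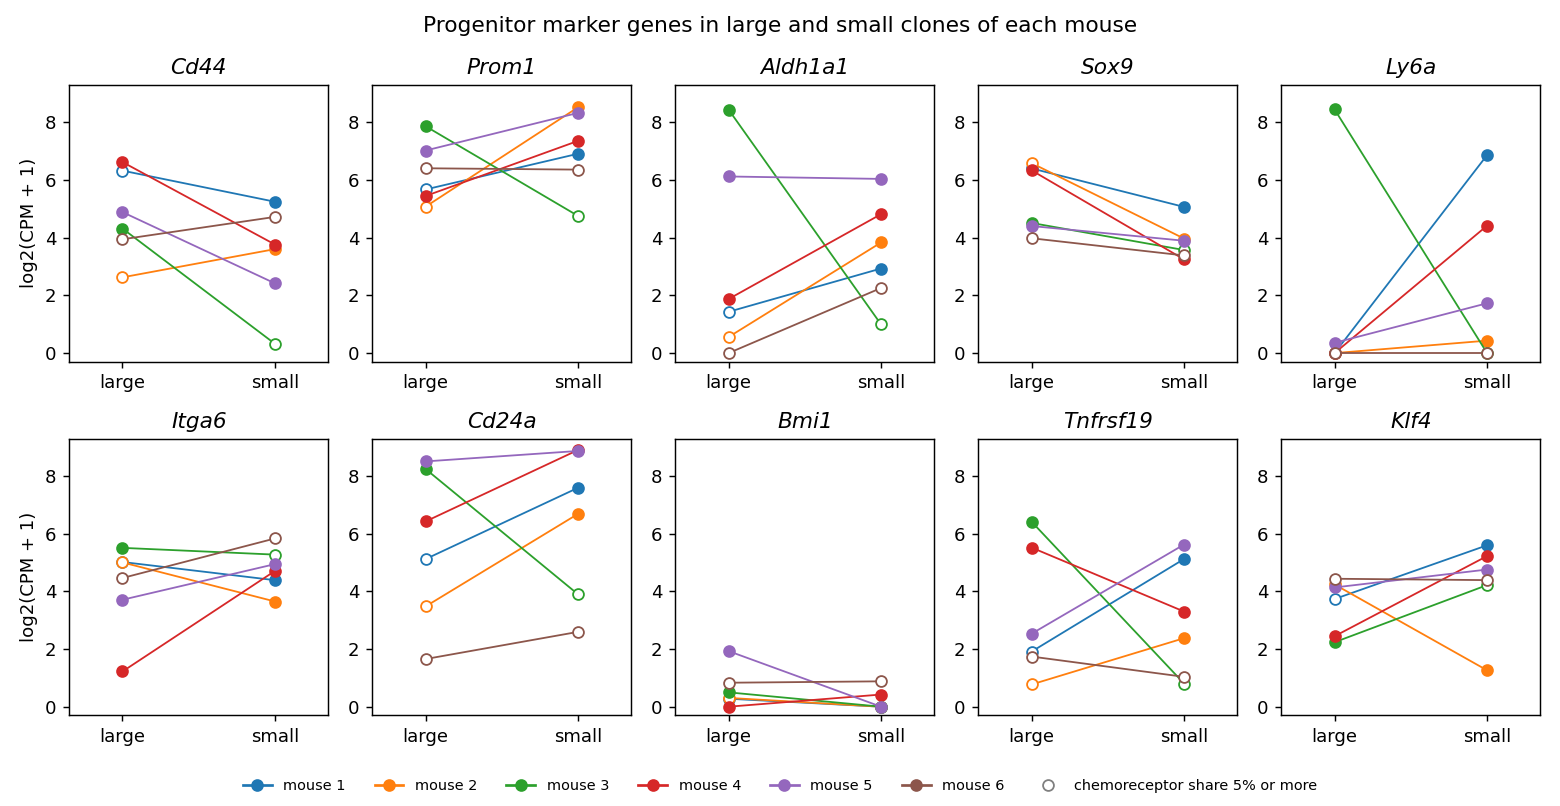
Level of each of the 10 members as log2(CPM + 1) in the large and small clones of each mouse, with a line joining the 2 libraries of a mouse and open symbols for the 5 libraries with a chemoreceptor share of 5% or more. The Sox9 line falls from large to small clones in 6 of 6 mice, while Ly6a lies near 0 in most libraries and high in the large clones of mouse 3 and the small clones of mouse 1.

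Sox9, a transcription factor that marks progenitor cells in several epithelia, was the member with the lowest p and the one whose direction was the same in every mouse. Sox9 (ENSMUSG00000000567, chromosome 11, 112673050 to 112678586 in the table's coordinates) ran from 14.8 CPM through a median of 50.9 to 95.4 CPM in large clones, and from 8.504 through 12.4 to 32.6 CPM in small clones. The groups overlapped, since the large clones of mice 3, 5 and 6 lay at 21.8, 20.2 and 14.8 CPM, below the small clones of mouse 1 at 32.6 CPM. The 3 highest values were all in large clones, 95.4 CPM in mouse 2, 83.8 in mouse 1 and 80.0 in mouse 4. Within each mouse the large-clone library was higher, in 6 of 6 mice, a pattern that 1.16% of all genes tested also had. The order within mice was the same when libraries were scaled to total counts. The mean was 52.7 ± 37.3 CPM in large clones against 15.0 ± 8.94 CPM in small ones (SD over 6 mice). The log2 fold change in edgeR was 1.81 (SE 0.70), with an unadjusted p of 0.0215 and an adjusted p of 0.9998, so the difference did not pass.

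The size of the Sox9 difference varied between the 2 sets of libraries. Its log2 fold change was 1.096 (unadjusted p of 0.278 in edgeR) in the 7 libraries of lower chemoreceptor share and 2.57 (unadjusted p of 0.0455) in the other 5, and the difference between the sets was not tested. With mouse as a block it was 1.55 (unadjusted p of 0.0547, adjusted p of 1 in edgeR). It was 1.499 to 1.98 when each mouse was left out in turn. The unadjusted p in edgeR was then 0.0959 without mouse 2 and 0.0795 without mouse 4. Without any other mouse it was at most 0.0347. In the 5 libraries with a higher chemoreceptor share Sox9 ran from 9.46 to 95.4 CPM and in the other 7 from 8.504 to 80.0 CPM. It thus did not separate these sets as the epithelial sum did.

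Cd44, the hyaluronan receptor, was on average higher in large clones, with overlapping groups. Cd44 (ENSMUSG00000005087, chromosome 2, 102641486 to 102732010) ran from 5.18 CPM through a median of 23.8 to 97.7 CPM in large clones and from 0.248 through 11.9 to 37.0 CPM in small clones. The highest libraries were the large clones of mouse 4 (97.7 CPM, 220 counts) and of mouse 1 (79.3 CPM, 374 counts). The lowest was the small-clone library of mouse 3, with 1 count. In mice 2 and 6 the order was the other way, with small clones higher at 11.2 against 5.18 CPM and at 25.4 against 14.4 CPM. The log2 fold change was 1.43 (SE 0.98, unadjusted p of 0.166, adjusted p of 0.9998 in edgeR), about the same in the 7 libraries (1.45) and in the 5 (1.33). Without mouse 4 it was 0.89 (unadjusted p of 0.432 in edgeR). It was 1.66 with mouse as a block and 1.42 with the chemoreceptor share as a covariate (unadjusted p of 0.181 and 0.166 in edgeR). With both terms it was 2.56 (unadjusted p of 0.0348, adjusted p of 0.9997 in edgeR). That was the highest of 18 alternative fits and the only 1 of them with an unadjusted p under 0.05.

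CD44 is also abundant on leukocytes and stromal cells, and markers of those cells were unevenly spread. The large clones of mouse 4, highest in Cd44, had the highest summed levels among the 12 libraries of fibroblast genes (537 CPM), endothelial genes (395 CPM) and red blood cell genes (5928 CPM), while their leukocyte sum, 52.9 CPM, ranked 10 of 12. In that library the leukocyte gene Ptprc was at 0 counts and Tyrobp, another leukocyte gene, was at 43.5 CPM. The large clones of mouse 1, second in Cd44, had the highest leukocyte sum, 307 CPM, and the highest Ptprc, 57.1 CPM. The small clones of mouse 1, next in Cd44, had the second highest fibroblast sum (198 CPM) and a leukocyte sum of 166 CPM that ranked 3 of 12. Libraries low in Cd44 differed in these sums. The small clones of mouse 5, at 4.34 CPM of Cd44, ranked 2 for endothelial, 4 for leukocyte and 4 for fibroblast genes. Those of mice 2 and 4, at 11.2 and 12.6 CPM, ranked 10 to 12 for all of these lists. Over all libraries the leukocyte sum of 10 genes ran from 52.9 to 307 CPM in large and from 25.9 to 171 CPM in small clones, and the fibroblast sum of 8 genes from 16.2 to 537 and from 37.4 to 198 CPM. The endothelial sum of 8 genes ran from 89.9 to 395 and from 85.4 to 267 CPM. Single markers went both ways between clone sizes, and none of those tested passed. With 5 genes tested in each list, 3 leukocyte, 4 endothelial and 3 fibroblast genes had a log2 fold change above 0. Those below 0 were Laptm5 (-0.80) and Csf1r (-0.59), Egfl7 (-0.62), and Col1a1 (-0.81) and Col1a2 (-1.16). The fibroblast gene Dcn had a log2 fold change of 3.41 (SE 1.59, unadjusted p of 0.0488 in edgeR, higher in 5 of 6 mice) and the endothelial gene Kdr one of 2.94 (SE 1.37, unadjusted p of 0.0492 in edgeR, higher in 2 of 6 mice), both with an adjusted p of 0.9998. For Ptprc it was 2.49 (SE 1.36, unadjusted p of 0.0864, adjusted p of 0.9998 in edgeR). Tyrobp, not tested, averaged 13.3 ± 15.8 CPM in large clones against 0.245 ± 0.601 CPM in small ones. Each mouse had more Tyrobp in its large-clone library. In mice 3 and 5 this rested on 2 and 4 counts against 0, near the 3 counts that a count of 0 allows. The order in those mice is therefore uncertain. Dcn, Kdr, Ptprc and Tyrobp were named after their values were seen. No gene of these 3 lists was at 0 in all 12 libraries, and the part of these cells in the Cd44 values was not tested.

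**Figure D2:**
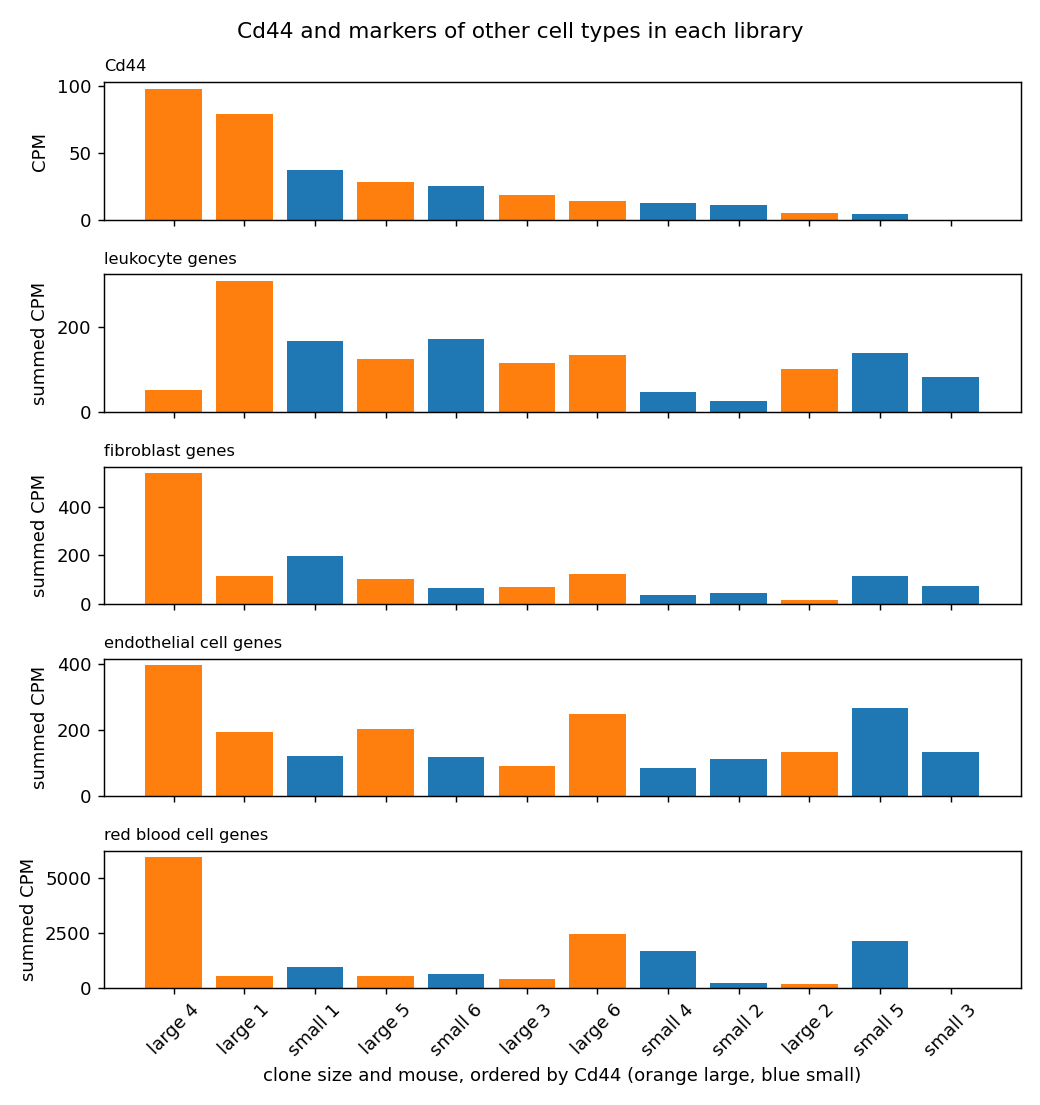
Cd44 in CPM and the summed CPM of leukocyte, fibroblast, endothelial and red blood cell genes in each library, ordered by Cd44, with large clones in orange and small clones in blue. The leftmost bar, the large clones of mouse 4, is the highest for Cd44 (97.7 CPM) and for fibroblast (537), endothelial (395) and red blood cell genes (5928), and the second bar, the large clones of mouse 1, is the highest for leukocyte genes (307).

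The 5 genes whose log2(CPM + 1) followed that of Cd44 most closely over the 12 libraries, among 10847 others, were Cbx5 (Pearson r of 0.83), Nnmt (0.82), Pappa (0.79), Prpf38b (0.78) and Aatf (0.78). Cbx5 encodes the heterochromatin protein HP1 alpha, Nnmt a nicotinamide methyltransferase and Pappa a protease that cleaves an insulin-like growth factor binding protein. Within the 7 libraries of lower chemoreceptor share these values were 0.47, 0.85, 0.91, 0.68 and 0.65. Nnmt was highest in the large clones of mouse 4, at 259 CPM against at most 28.4 CPM elsewhere. The 2 libraries of a mouse share their animal, and closeness of this kind was a criterion of the choice.

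Aldh1a1, the retinaldehyde dehydrogenase, had the largest log2 fold change of the 8 members, and it rested on 1 library. Aldh1a1 (ENSMUSG00000053279, chromosome 19, 20470079 to 20620829) ran from 0 through a median of 2.18 to 348 CPM in large clones and from 0.992 through 9.96 to 64.8 CPM in small clones. The large clones of mouse 3 held 56.6% of its counts over all 12 libraries (844 of 1490). The mean was higher in large clones, at 70.3 ± 139 against 19.5 ± 24.1 CPM (SD over 6 mice), but the median was lower, and 4 of 6 mice had the lower value in large clones. The log2 fold change of 1.85 (SE 1.56, adjusted p of 0.9998 in edgeR) became -0.65 when mouse 3 was left out and, in the model blocked by mouse, -2.11, both with an adjusted p above 0.9 in edgeR (0.905 and 1).

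Ly6a (SCA-1; ENSMUSG00000075602, chromosome 15, 74866726 to 74869880) was present in a few libraries and at 0 counts in 6 of 12. The large clones of mouse 3 had 349 CPM (847 counts) and the small clones of mouse 1 had 116 CPM (366 counts), which together made 94.5% of its counts. The small clones of mouse 4 followed with 20.4 CPM and those of mouse 5 with 2.32 CPM, and no other library exceeded 1 count. All 5 libraries with the higher chemoreceptor share were at 0, where 3 counts would be 0.585 to 0.744 CPM. On the log2(CPM + 1) scale the mean was 1.47 ± 3.42 in large clones against 2.24 ± 2.82 in small ones (SD over 6 mice), a difference of -0.77. Its exact permutation p (two-sided) was 0.654 over 6 against 6 libraries and 0.75 over swaps within mice. The smallest p these exact permutation tests can give is 0.0022 and 0.031. With no filter, edgeR gave a log2 fold change of 1.12 (adjusted p of 0.895), of the opposite sign, since it compares means and the highest library was of large clones. In the 7 libraries of lower chemoreceptor share edgeR gave 1.49 (adjusted p of 0.9988). Of the cells in which LY6A is known, the marker sums in the large clones of mouse 3 were 89.9 CPM for endothelial genes (rank 11 of 12), 115 CPM for leukocyte genes (rank 7) and 69.3 CPM for fibroblast genes (rank 8). In the small clones of mouse 1 they were 123 CPM for endothelial genes (rank 8), 166 CPM for leukocyte genes (rank 3), 198 CPM for fibroblast genes (rank 2) and 215 CPM for smooth muscle genes (rank 1). The part of these cells in the Ly6a values was not tested.

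The large clones of mouse 3 thus had the highest level of 3 members, Ly6a, Aldh1a1 and Tnfrsf19. That library also had the second highest epithelial sum, 8811 CPM, and the highest level of Ly6e, a relative of Ly6a, at 551 CPM. Sox9 there was 21.8 CPM and Cd44 19.0 CPM, both within the range of the small-clone libraries.

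Prom1 and Cd24a were the members with the most counts, 5437 and 6425 over the 12 libraries, and both were lower in large clones in most mice without passing the test. Prom1 (prominin-1; ENSMUSG00000029086, chromosome 5, 44150962 to 44259374) ran from 32.7 through a median of 67.1 to 233 CPM in large clones and from 26.0 through 141 to 367 CPM in small clones, and 4 of 6 mice had the lower value in large clones. The log2 fold change was -0.92 (SE 0.68, adjusted p of 0.9998 in edgeR), -1.64 without mouse 3, -0.49 without mouse 2, -0.93 in the 7 libraries and 0.03 in the 5. Cd24a (ENSMUSG00000047139, chromosome 10, 43454280 to 43460261) ran from 2.14 through 59.3 to 363 CPM in large and from 5.04 through 147 to 478 CPM in small clones, and was lower in large clones in 5 of 6 mice, mouse 3 being the exception. In mice 1, 2 and 3 the pair spanned the 2 sets of libraries, which Cd24a separated without overlap. Cd24a was lower in large clones in mice 4, 5 and 6, whose pairs lay within a set. Its log2 fold change was -0.66 (SE 1.14, adjusted p of 0.9998 in edgeR). Adding the chemoreceptor share as covariate gave 0.41, and it was -0.31 in the 7 libraries and 0.55 in the 5, so neither its sign nor its size was stable.

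Cd24a and Tnfrsf19 separated the 2 sets of libraries instead. Cd24a was 84.8 to 478 CPM in the 7 libraries of lower chemoreceptor share and 2.14 to 33.7 CPM in the other 5, with no overlap. Tnfrsf19 was 4.19 to 84.5 CPM in the 7 and 0.706 to 2.76 CPM in the 5, again with no overlap. Each of the 7 lay above each of the 5 for these 2 of the 8 members tested, and for 9.98% of all genes tested (1083 of 10848). The reverse, each of the 7 below each of the 5, was seen for 0 members and for 8.62% of all genes. Aldh1a1 overlapped slightly, at 2.67 to 348 against 0 to 3.78 CPM, and Prom1 more, at 42.6 to 367 against 26.0 to 84.0 CPM. Cd44, Sox9, Itga6 and Klf4 overlapped widely, with medians in the 7 and the 5 of 19.0 and 14.4, 20.2 and 14.8, 19.9 and 31.4, and 16.6 and 17.9 CPM. The epithelial sum, mostly Krt18, moved with this split, as did the sum of ciliated cell genes (595 to 2997 CPM in the 7, 79.6 to 202 in the 5). The sum of secretory cell genes did so with overlap (645 to 7935 against 364 to 852 CPM). The part of epithelial, ciliated and secretory cells in the Cd24a and Tnfrsf19 values was not tested.

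**Figure D3:**
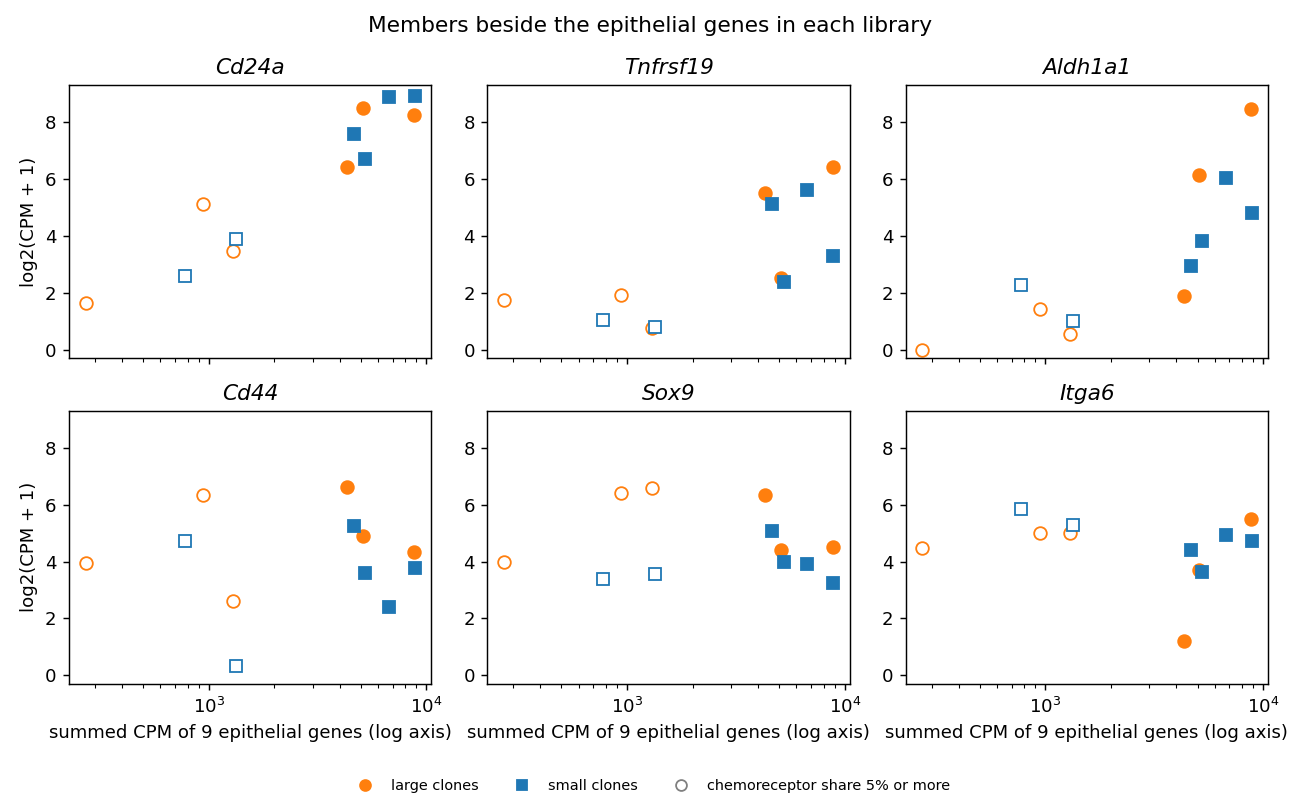
Level of 6 members as log2(CPM + 1) against the summed CPM of 9 epithelial genes on a log axis, 1 point per library, with circles for large and squares for small clones and open symbols for a chemoreceptor share of 5% or more. Cd24a and Tnfrsf19 are higher in all 7 filled points than in the 5 open ones, whereas Cd44, Sox9 and Itga6 overlap between them.

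Between clone sizes, Tnfrsf19 (ENSMUSG00000060548, chromosome 14, 61201324 to 61283939) ran from 0.706 through a median of 3.77 to 84.5 CPM in large and from 0.744 through 6.52 to 48.3 CPM in small clones. In 3 of 6 mice the large clones had the higher value. Its log2 fold change came to 0.52 (SE 1.25, adjusted p of 0.9998 in edgeR), 0.05 without mouse 4, 1.47 without mouse 5 and -0.81 without mouse 3. Blocking by mouse gave -0.35.

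Itga6, the laminin receptor subunit, was among the more even of the tested members, with a standard deviation of 1.22 in log2(CPM + 1) over the 12 libraries. Sox9 (1.21), Prom1 (1.25) and Klf4 (1.28) were about as even, and the highest value was 2.61 for Aldh1a1. Itga6 (ENSMUSG00000027111, chromosome 2, 71575960 to 71688760) ran from 1.33 through a median of 26.1 to 44.5 CPM in large and from 11.5 through 27.5 to 56.1 CPM in small clones, and each direction was seen in 3 of 6 mice (2 were higher in large clones when libraries were scaled to total counts). Its lowest value, 3 counts, was in the large clones of mouse 4, the library with the highest Cd44. In edgeR the log2 fold change was -0.35 (SE 0.75, adjusted p of 0.9998 in edgeR), between -0.68 and -0.06 when 1 mouse was left out.

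Klf4 (ENSMUSG00000003032, chromosome 4, 55527143 to 55532466), a factor of epithelial differentiation, ran from 3.71 through a median of 14.4 to 20.7 CPM in large and from 1.40 through 23.0 to 47.4 CPM in small clones. It was lower in large clones in 4 of 6 mice, mice 2 and 6 being the exceptions. For Klf4 the log2 fold change was -0.97 (SE 0.80, adjusted p of 0.9998 in edgeR), -1.77 in the 7 libraries and -0.20 in the 5.

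Bmi1 (ENSMUSG00000026739, chromosome 2, 18681829 to 18691440) was close to the limit of detection, with 22 counts in all 12 libraries. The large clones of mouse 5 had 10 counts (2.81 CPM), both libraries of mouse 6 had 4 counts each, and the other 9 had 0 or 1. A difference was not detectable at this depth: the mean log2(CPM + 1) was 0.64 ± 0.69 in large clones against 0.22 ± 0.37 in small ones (SD over 6 mice). The exact permutation p (two-sided) was 0.229, and 0.25 over swaps within mice.

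**Figure D4:**
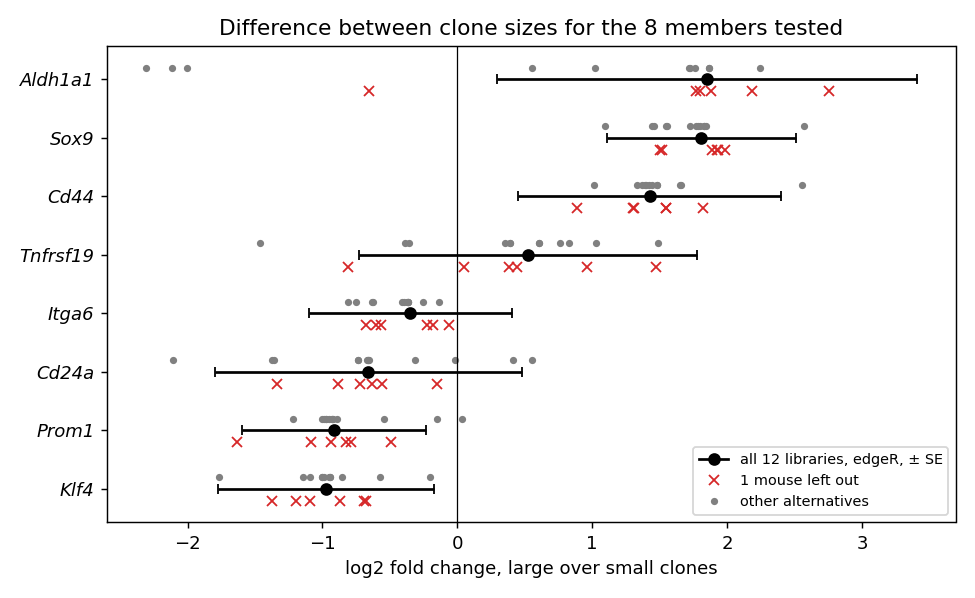
Log2 fold change of large over small clones for the 8 members tested, with the edgeR value and its standard error in black, the values with 1 mouse left out as red crosses and the other alternatives as grey points. Sox9 and Cd44 stay above 0 in every fit in which they were tested, Itga6 and Klf4 below 0, and Aldh1a1, Tnfrsf19, Cd24a and Prom1 have values on both sides.

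Levels can be compared between genes only per length. Divided by the mean length of each gene's protein-coding transcripts in GENCODE M21, the median level over the 12 libraries was 73.0 CPM per kb for Cd24a, 34.4 for Prom1, 12.1 for Klf4, 7.003 for Itga6, 5.75 for Cd44, 4.24 for Sox9, 2.99 for Aldh1a1, 1.80 for Tnfrsf19, 0.179 for Ly6a and 0.161 for Bmi1. The ranges of neighbours in this order overlapped in every case. A length correction assumes even coverage of transcripts, which poly(A) amplification may not give.

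Genes that work with the members were described from 7 lists of 93 genes, of which 42 could be tested. Plec was the only one with an unadjusted p under 0.05 in edgeR, a share near the 2.54% of all genes tested. The adjusted threshold was passed by 0 of the 42, as by 0% of all genes tested. Of the 42, 18 had a log2 fold change above 0 and 24 below, with a median of -0.12 against 0.06 over all genes tested.

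Among the partners of integrin alpha 6, Plec, which encodes the hemidesmosome linker plectin, had 166 ± 128 CPM in large clones against 547 ± 265 CPM in small ones (SD over 6 mice). It ran from 12.7 to 352 CPM in large and from 211 to 837 CPM in small clones, so the groups overlapped, and it was lower in large clones in 6 of 6 mice, as were 1.05% of all genes tested. The log2 fold change of Plec was -1.72 (SE 0.67, unadjusted p of 0.0208, adjusted p of 0.9998 in edgeR). Of the 8 genes tested in this list of laminin-binding integrins and hemidesmosome components, 6 were below 0, with a median of -0.70. Itgb1 and Itgb4, the beta chains that pair with integrin alpha 6, had log2 fold changes of -0.19 and -0.86 (SE 1.33 and 1.13). The summed level of this list was 510 to 2311 CPM in the 7 libraries of lower chemoreceptor share and 232 to 767 CPM in the other 5.

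In the hyaluronan list around Cd44, 7 of 15 genes were tested, 4 above and 3 below 0. The lysosomal hyaluronidase gene Hyal1 had 115 ± 48.8 CPM in large clones against 74.1 ± 39.6 CPM in small ones (SD over 6 mice). Ezr, whose product ezrin ties membrane proteins such as CD44 to actin, had 44.9 ± 34.5 and 79.0 ± 53.6 CPM. The hyaluronan synthase genes Has1, Has2 and Has3 were at 0 counts in 11, 9 and 10 of the 12 libraries.

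Around Bmi1, 8 of 18 Polycomb repressive complex 1 genes were tested, 1 above and 7 below 0, with a median of -0.29. The chromobox gene Cbx6 had 45.4 ± 41.3 CPM in large clones against 105.7 ± 66.4 CPM in small ones, and Kdm2b, which encodes a subunit of a variant complex, had 45.8 ± 63.9 and 71.3 ± 91.3 CPM (SD over 6 mice). The gene above 0 was Pcgf5, a relative of Bmi1, with 70.3 ± 52.4 and 30.3 ± 8.42 CPM (unadjusted p of 0.0670 in edgeR, named after its value was seen).

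Of the 14 retinoid genes listed around Aldh1a1, 2 could be tested, both with a log2 fold change above 0 and neither past the threshold. Dhrs3, which encodes a retinaldehyde reductase, had 48.1 ± 58.6 CPM in large clones against 31.6 ± 28.9 CPM in small ones (SD over 6 mice), with a log2 fold change of 0.61 (SE 0.95, adjusted p of 0.9998 in edgeR). The sister enzyme genes Aldh1a2 and Aldh1a3 were not tested, and had at most 20.96 and 3.80 CPM in any library.

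Among the relatives of Sox9 and Klf4, 9 of 13 genes were tested, 5 above and 4 below 0. Sox4 had 333 ± 256 CPM in large clones against 239 ± 137 CPM in small ones, and Klf3 had 114 ± 25.3 and 117.6 ± 70.9 CPM (SD over 6 mice). Their log2 fold changes were 0.48 (SE 0.58) and -0.04 (SE 0.52).

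In a list of 14 other stem and basal cell markers, 6 were tested, 3 above and 3 below 0. Lgr5, the R-spondin receptor that marks stem cells in the intestine, had 65.2 ± 38.7 CPM in large clones against 65.3 ± 34.1 CPM in small ones (SD over 6 mice), and the RNA-binding protein gene Msi2 had 79.3 ± 91.5 and 72.2 ± 60.5 CPM. The basal keratin genes Krt5, Krt14 and Krt15 were at 0 counts in 10, 10 and 9 of the 12 libraries. Of 8 relatives of Ly6a and other small surface proteins, 2 were tested. Ly6e had 131 ± 211 CPM in large clones against 170.4 ± 70.5 CPM in small ones, and Cd59a, a complement inhibitor gene, had 13.9 ± 9.57 and 11.3 ± 12.8 CPM (SD over 6 mice).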

How the data were processed

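RNA of large and small clones was measured in 12 libraries, paired by mouse per the labels. The values deposited by the authors are expected counts, 1 table for all genes, and the submitters' processing notes name RSEM, Bowtie2 and GRCm38 without versions. The table's coordinates matched GENCODE M21 (GRCm38) in 2.96% of 35491 shared genes, so they are given as the table has them and belong to a build it does not name. One row without a symbol (0.133% of counts) was kept under its identifier.

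Expected counts were rounded, and edgeR 4.0.16 (R 4.3.3) was run with its quasi-likelihood test, TMM, filterByExpr and Benjamini-Hochberg adjustment over 10848 genes, at 0.05. The SE is the log2 fold change divided by the root of F. Members under the filter had exact permutation tests on log2(CPM + 1). The main model had no mouse term. Libraries with the same number come from the same mouse, so a paired alternative took mouse as a block, and the correlation of their deviations from group means was -0.019, -0.007, -0.38, 0.28, 0.52 and 0.64 for mice 1 to 6. Sequences were compared over 50-base stretches. The test was checked on simulated data. Alternatives used DESeq2 1.42.0, limma 3.58.1, other scalings and filters, covariates and omission of mice or library sets.

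The members and the gene lists were chosen with earlier results of these data known. Named were all members, for Cd44 the 5 genes closest to it, from each list the genes with an unadjusted p under 0.05 or else the 2 with the highest mean level, and near-identical relatives of members. Other genes named were chosen after their values were seen. One gene that this rule names is not reported here.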

Additional observations from a re-analysis of the deposited data

Results flagged for a closer look

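For each of the 10 members and each clone size, the highest and lowest of the 6 libraries in log2(CPM + 1) were compared with their nearest neighbour. Of these 20 groups, 2 held a value far from the rest. Chance gives about 1 in 20 for normally spread values, and the spread was not tested. Ly6a in the large clones of mouse 3 was at 349 CPM, with a gap to the nearest library of 0.958 of the group's range. That is above Dixon's critical value for 6 values. The other large-clone libraries held 0 or 1 count of Ly6a, so any 1 high library makes such a gap. The critical value, made for a normal spread, does not apply to this group. Klf4 in the small clones of mouse 2 was at 1.40 CPM, the lowest of its group, with a gap of 0.682 of the range.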

How the results depend on the processing

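No member passed an adjusted p under 0.05 in any of 19 alternatives, and the number of all genes passing was 0 in 17 of them, 5 in DESeq2 (4 higher, 1 lower in large clones) and 42 in DESeq2 with the replicate block (13 higher, 29 lower). The cause was not tested. The number at an unadjusted p under 0.05 in edgeR was 275 of 10848 genes tested in the main fit. It was 2880 of 25369 without a filter and 127 of 4268 when every library had to hold 10 counts. With 1 mouse omitted it lay between 180 of 11310 (mouse 4) and 492 of 11259 (mouse 3). In edgeR, pairing the libraries by the replicate block left 0 genes passing, the same call as without it. Signs turned for 5 members, and the cause was not tested. Aldh1a1 (1.85) was -2.11 with the replicate block, -2.31 in DESeq2 with it, -2.01 in limma with quality weights, and -0.65 to 2.76 without 1 mouse. Tnfrsf19 (0.52) was -0.35, -0.39 and -1.46 in the same 3 fits and -0.81 to 1.47 without 1 mouse. Cd24a (-0.66) was 0.41 after adding the chemoreceptor share as covariate, and 0.55 in the 5 libraries with the higher share, where Prom1 (-0.92) was 0.033. Sox9 kept its sign in 19 fits (1.096 to 2.57, lowest adjusted p 0.238 in DESeq2 with the block), Cd44 in 18 (0.89 to 2.56), Itga6 in 18 and Klf4 in 18. Ly6a (-0.77 on the log2(CPM + 1) scale) stayed below 0 with other pseudocounts and with total counts as the scale, but edgeR gave 1.12 with no filter and 1.49 in the 7 libraries. Bmi1 (0.42) stayed above 0 in these scalings and was 1.71 in edgeR with no filter. Ly6a and Bmi1 were removed by the filter in most fits, and in single fits other members were too. Depth limits Bmi1, with 22 counts in all, and 2 libraries held 94.5% of the counts of Ly6a.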
